A study of Mus musculus with 6 samples.

Results

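Leptin receptor and gp130 cytokine signalling was followed through 10 genes, taken by symbol from the 17128 genes of the count table. They are the receptor chains Lepr, Il6st, Lifr, Osmr, Il6ra and Il11ra1, the ligands Il6 and Lif, the kinase Jak2 and the transcription factor Stat3. All 10 had an entry and all 10 passed the filter on low counts. RNA was sequenced from cells sorted out of collagenase-digested mouse femurs at postnatal day 21, after the distal growth plates had been taken off. The 3 control libraries held GFP+ cells of Cxcl12(GFP/fl); R26R(tdTomato/+) mice. The 3 CXCL12-deficient libraries held GFP+ tdTomato+ cells of Cxcl12(GFP/fl); Col2a1-cre; R26R(tdTomato/+) mice. Both groups thus had a Cxcl12 allele replaced by GFP and a second one with loxP sites, and the deficient group differed in the cre transgene, in the recombined allele and in the added tdTomato gate. Col2a1-cre acts in cartilage-forming cells and their descendants, so the tdTomato gate is aimed at cells of that descent. Markers of blood cells were still read after it. The labels name no separate animals, litters or batches, so p-values reflect only the spread among these libraries, which may be technical.

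Cytokines of the interleukin 6 family bind a receptor chain of their own and then signal through a shared chain, gp130, the product of Il6st. The leptin receptor is built like gp130 and signals on its own when leptin binds. Both types of receptor carry Janus kinases, which phosphorylate STAT3, and STAT3 then switches on target genes, among them its own inhibitor Socs3. In adult marrow Lepr is a standard marker of the stromal cells that make CXCL12, known as CXCL12-abundant reticular (CAR) cells.

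Total counts lay between 20133299 and 28009257 per library. Cxcl12, the targeted gene, kept 34.4% of its control level (log2 fold change -1.54 ± 0.17 SE, adjusted p = 0.0053, edgeR). Markers of blood cells were read in both sorts, and those of white blood cells were in part lower in the CXCL12-deficient one. The summed level of 8 pan-leukocyte markers ran from 1873 to 3025 CPM (reads relative to library size, scaled by TMM factors, as edgeR gives them) in controls and from 382 to 796 CPM in CXCL12-deficient libraries, and all 8 fell. Of 12 neutrophil markers 11 fell, with sums of 15242 to 20889 CPM against 2879 to 7084 CPM. Of 11 monocyte and macrophage markers 5 fell, while 4 had a log2 fold change above 0, 2 of these at an unadjusted p below 0.05. Of 12 endothelial markers 6 fell. Of 9 erythroid markers 0 were called by edgeR, DESeq2 or limma-voom (0 at an unadjusted edgeR p below 0.05), and their sum was 2595 to 3565 CPM in controls and 1584 to 6985 CPM in CXCL12-deficient libraries, 2 of which lay above every control. The 16 CAR cell markers, Cxcl12 included, were all present, and their sum rose from between 25046 and 25708 CPM to between 33197 and 37921 CPM. Of these 16, Ebf3, Adipoq and Cxcl14 rose and Cxcl12 fell. Without control replicate 3 the called markers numbered 3 pan-leukocyte, 1 neutrophil, 2 monocyte and macrophage, 2 endothelial and 1 CAR cell gene. Without control replicate 2 the neutrophil, endothelial and CAR cell counts were 3, 3 and 1, without control replicate 1 the last 2 were 3 and 2, without CXCL12-deficient replicate 1 the CAR cell count was 1, and without CXCL12-deficient replicate 2 the neutrophil count was 5. In bulk libraries like these, fewer cells of a type and less RNA per cell cannot be told apart. Nor can the loss of Cxcl12, the cre transgene and the added tdTomato gate, which the groups differ in together.

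Among the 10 genes, Il6ra alone passed the test, and it fell to 25.1% of its control level. Across all 13926 genes tested, 3.94% were called lower and 0.639% higher (edgeR, adjusted p below 0.05). Of the 10 genes, 1 was called lower and 0 higher, while 3 were higher and 1 lower at an unadjusted p below 0.05. The share of all genes at that unadjusted cut is not given here, so the unadjusted counts are a description only. DESeq2 called 2 of the 10 higher, Lepr and Il11ra1, where it called 2.27% of all genes higher, and limma-voom called 0. The groups did not overlap at Lepr, Il6st and Il11ra1, which lay higher in every CXCL12-deficient library (3 of 10, against 11.7% of all genes), nor at Il6ra, which lay lower (1 of 10, against 13.9%). The median log2 fold change of the 10 was 0.50, and that of all genes 0.03.

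**Figure D1:**
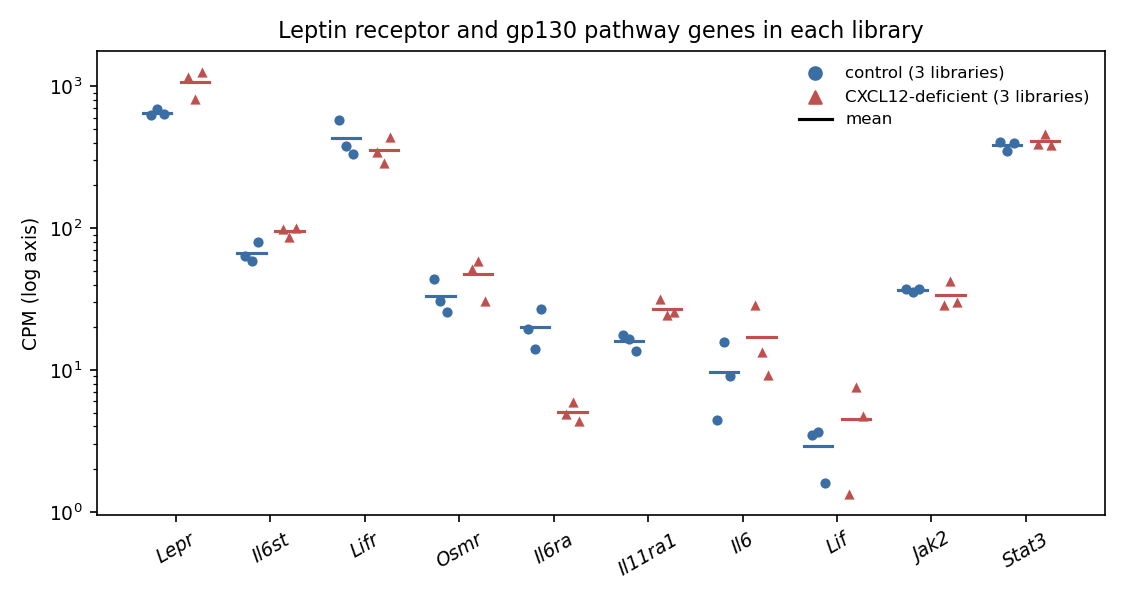
CPM of each of the 10 genes (log axis) in 3 control libraries (circles) and 3 CXCL12-deficient libraries (triangles), with bars at the means. Il6ra lies between 14.0 and 26.8 CPM among controls and between 4.35 and 5.93 CPM among CXCL12-deficient libraries, while the Stat3 and Jak2 points of both groups mingle.

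The leptin receptor was the most abundant of the receptor chains and was higher in the CXCL12-deficient libraries, without passing the threshold. Lepr had 630, 688 and 637 CPM in controls 1, 2 and 3, and 1157, 809.6 and 1260.1 CPM in CXCL12-deficient libraries 1, 2 and 3. Every CXCL12-deficient library exceeded every control, and CXCL12-deficient library 2 lay closest to them. The means were 652 ± 31.6 and 1076 ± 236 CPM (SD, n = 3 each), a 1.65-fold difference (log2 fold change 0.72 ± 0.19 SE, adjusted p = 0.075, edgeR). The gene was called without CXCL12-deficient replicate 2 (0.89 on the log2 scale, adjusted p = 0.035) and by DESeq2 (adjusted p = 0.0053). It was called in 1 of the 6 refits that each left out a library, with adjusted p from 0.035 to 0.28. The sum of the CAR cell markers rose in the same libraries. Divided by that sum without Cxcl12, Lepr amounted to 2.89% to 3.22% in controls and 2.54% to 3.43% in CXCL12-deficient libraries, and on this scale the groups overlapped (log2 difference 0.02, exact permutation p = 0.9, two-sided).

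In GENCODE M21, Lepr spans bases 101717404 to 101815352 of chromosome 4 (GRCm38, plus strand). Its splice forms, among them the long form that activates STAT3 and the short forms with little of the signalling tail, were counted together here and cannot be told apart. The neighbouring gene Leprot, whose protein affects how much leptin receptor reaches the cell surface, ends 58039 bases upstream in that annotation and shares no exon with it. Leprot, named after its values were seen, had 236 ± 22.2 CPM among controls and 290 ± 21.3 CPM among CXCL12-deficient libraries (SD, n = 3 each; log2 fold change 0.30 ± 0.15 SE, adjusted p = 0.31, edgeR). The RefSeq window of 250 bases before the first Lepr start is shown because Lepr has the most counts of the 10 genes. It lies at chr4:101717157-101717406 on the plus strand of GRCm38.p6, holds 58.4% G and C and 10 CpG pairs, and reads 5′ to 3′, with no capitals because it holds no match to the STAT motif described further on:
Lepr: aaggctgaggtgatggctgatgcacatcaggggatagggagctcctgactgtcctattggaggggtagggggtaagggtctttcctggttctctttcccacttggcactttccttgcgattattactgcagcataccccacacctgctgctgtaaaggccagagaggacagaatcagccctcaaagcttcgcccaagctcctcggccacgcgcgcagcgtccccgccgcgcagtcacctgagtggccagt

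Il6st, the shared chain gp130, showed the same order of the groups with a smaller difference. It had 63.8, 58.4 and 79.1 CPM among controls and 97.8, 86.6 and 100.03 CPM among CXCL12-deficient libraries. All 3 CXCL12-deficient values lay above the highest control, by a narrow margin at CXCL12-deficient library 2. The log2 fold change was 0.50 ± 0.16 (SE), and the gene was not called by edgeR (adjusted p = 0.14) or in any of the 6 refits. Relative to the summed CAR cell markers without Cxcl12 its direction turned, with 0.273% to 0.359% in controls and 0.271% to 0.275% in CXCL12-deficient libraries (log2 difference -0.17, exact permutation p = 0.2, two-sided).

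Il11ra1, the receptor chain for interleukin 11, had 17.7, 16.5 and 13.6 CPM among controls and 31.4, 24.3 and 25.5 CPM among CXCL12-deficient libraries. The groups did not overlap, and the log2 fold change was 0.76 ± 0.21 (SE; adjusted p = 0.082, edgeR). DESeq2 called it (adjusted p = 0.024), and none of the 6 refits did. Divided by the same marker sum it overlapped between the groups, at 0.0618% to 0.0826% in controls and 0.0693% to 0.0883% in CXCL12-deficient libraries. Of the 50-base words in its annotated transcripts, 46.3% also occur in Il11ra2 or Gm13305, near copies on the same chromosome. How reads shared by these copies were counted was not given in the sources used here, and the level of Il11ra1 is uncertain. Il11ra2 had no entry in the count table.

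Lifr and Osmr, which pair with gp130 to receive leukaemia inhibitory factor and oncostatin M, differed less between the group means than among the CXCL12-deficient libraries (SD). Lifr had 573, 380.2 and 332 CPM among controls and 346, 289 and 436 CPM among CXCL12-deficient libraries. Control library 1 stood above the rest and the groups overlapped (log2 fold change -0.26 ± 0.24 SE, adjusted p = 0.62, edgeR). Without control replicate 1 the log2 fold change of Lifr was -0.02. Control library 1 also had the highest sum of 10 osteoblast markers, 28761 CPM against 8256 to 19909 CPM in the other libraries. The part of this in its Lifr and Osmr values was not tested. Osmr had 43.8, 30.4 and 25.7 CPM among controls and 51.6, 59.0 and 30.8 CPM among CXCL12-deficient libraries, again with overlap (0.50 ± 0.28 SE, adjusted p = 0.39, edgeR).

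Il6ra, which encodes the binding chain for interleukin 6, had 19.5, 14.0 and 26.8 CPM among controls and 4.87, 5.93 and 4.35 CPM among CXCL12-deficient libraries. These values rest on 344 to 567 reads per control library and on 98 to 136 reads per CXCL12-deficient library. The groups stood well apart, the lowest control being over the highest CXCL12-deficient value. The means were 20.1 ± 6.42 and 5.05 ± 0.805 CPM (SD, n = 3 each), a 3.97-fold fall (log2 fold change -1.99 ± 0.31 SE, adjusted p = 0.012, edgeR). It was called in 5 of the 6 refits, with log2 fold changes from -2.19 to -1.74, and missed the threshold without control replicate 3 (adjusted p = 0.060). White blood cells are a known site of Il6ra expression, and the pan-leukocyte markers fell in the same libraries. Relative to their sum, Il6ra amounted to 1.04%, 0.569% and 0.886% in controls and 0.613%, 0.963% and 1.14% in CXCL12-deficient libraries. On this scale the groups overlapped and the direction turned (log2 difference 0.12, exact permutation p = 0.7, two-sided). In which cells Il6ra fell was not tested.

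Il6ra lies on the minus strand of chromosome 3, from 89864059 to 89913196 of GRCm38. An antisense gene, Gm42809, overlaps 2.8% of its exon bases, and without the strand setting reads of the pair cannot be separated there. The RefSeq window of 250 bases before its start is shown because Il6ra is the called gene among the 10. It lies at chr3:89913197-89913446 on the minus strand of GRCm38.p6 and holds 65.2% G and C and 18 CpG pairs, where the median over all such windows is 52.4% and 6. It reads, 5′ to 3′ and with no motif match to put in capitals:
Il6ra: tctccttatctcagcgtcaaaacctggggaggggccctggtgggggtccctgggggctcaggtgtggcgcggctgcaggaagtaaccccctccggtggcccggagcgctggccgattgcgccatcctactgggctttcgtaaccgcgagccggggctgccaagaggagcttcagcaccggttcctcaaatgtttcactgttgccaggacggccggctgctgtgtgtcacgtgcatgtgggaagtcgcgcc

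**Figure D2:**
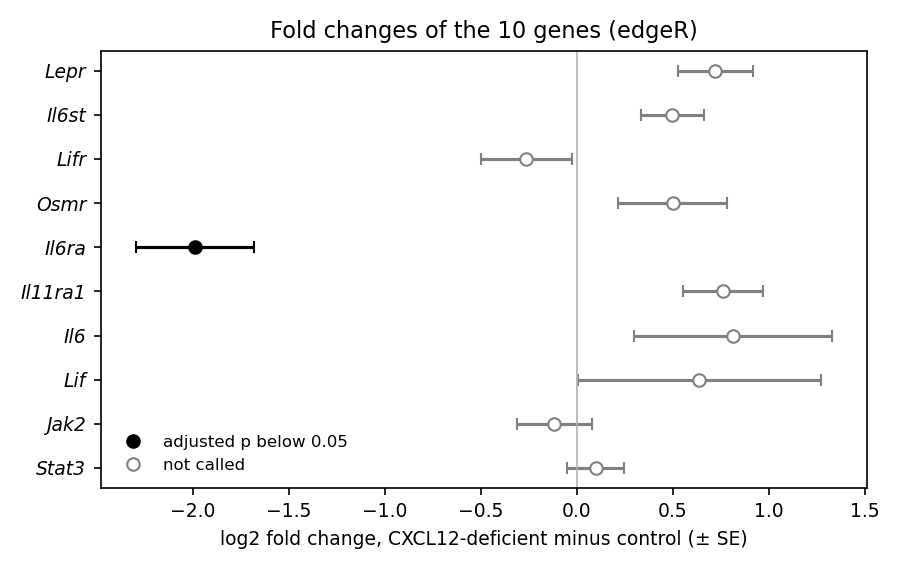
Log2 fold change of each of the 10 genes (CXCL12-deficient minus control, edgeR), with bars of 1 SE to each side. The filled point, Il6ra at -1.99, is the called gene. Open points are genes that were not called.

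The ligands were low and uneven. Il6 had 4.43, 15.6 and 9.07 CPM among controls and 28.6, 13.4 and 9.28 CPM among CXCL12-deficient libraries. CXCL12-deficient library 1 was the highest of the 6 and control library 1 the lowest, and the other 4 libraries mixed (log2 fold change 0.82 ± 0.52 SE, adjusted p = 0.45, edgeR). Lif had 3.46, 3.66 and 1.61 CPM among controls and 1.33, 7.59 and 4.71 CPM among CXCL12-deficient libraries, from 32 to 174 reads per library (0.64 ± 0.63 SE, adjusted p = 0.66). For both genes the SD of the CXCL12-deficient group exceeded the difference between the group means. Over the 6 refits the difference in Il6 ran from 0.22 to 1.34 on the log2 scale, and in Lif from 0.05 to 1.08.

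The kinase and the transcription factor shared by these receptors did not pass the test, and their group means lay closer together than the libraries of the CXCL12-deficient group did (SD). Stat3 had 403, 351 and 396 CPM among controls and 391, 456 and 385 CPM among CXCL12-deficient libraries (log2 fold change 0.10 ± 0.15 SE, adjusted p = 0.78, edgeR). Jak2 had 37.5, 35.2 and 37.3 CPM among controls and 28.8, 42.2 and 30.3 CPM among CXCL12-deficient libraries (-0.12 ± 0.20 SE, adjusted p = 0.81). Both genes overlapped between the groups. The 3 Jak2 controls lay closer together than its 3 CXCL12-deficient values.

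Per kilobase of annotated exon, which allows genes to be set side by side, Lepr led in both groups. In controls Lepr stood at 92.4 ± 4.48 CPM per kilobase, Lifr at 39.8 ± 11.8, Il6st at 6.05 ± 0.966, Il11ra1 at 3.57 ± 0.475, Osmr at 2.75 ± 0.775 and Il6ra at 2.33 ± 0.743 (SD, n = 3). The libraries of Il11ra1, Osmr and Il6ra overlapped with their neighbours in this order, and the first 3 genes did not. In CXCL12-deficient libraries the order was the same, at 153, 33.2, 8.54, 6.06, 3.89 and 0.585 CPM per kilobase, and no neighbours overlapped. Stat3 stood at 40.2 and 43.1 CPM per kilobase in the 2 groups and Jak2 at 7.29 and 6.72. The exon lengths join all GENCODE transcripts of a gene, and the exons the authors counted may differ.

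The balance between each specific receptor chain and gp130 was compared as the log2 ratio of their reads within a library, a measure that no scaling between libraries alters. Il6ra to Il6st was the ratio that separated the groups, at -1.71, -2.06 and -1.56 in controls and -4.33, -3.87 and -4.52 in CXCL12-deficient libraries. The difference was -2.46, with an exact two-sided permutation p = 0.1, the smallest that 3 against 3 allows (0.5 after adjustment over 5 ratios). In bulk libraries the reads of both genes of a ratio need not come from the same cells. Relative to the summed pan-leukocyte markers Il6ra overlapped between the groups (log2 difference 0.12), and which cells this ratio reflects was not tested. Lifr to Il6st was 0.75 lower in the mean (difference -0.75, p = 0.2, adjusted 0.5, exact permutation), and control library 3 lay inside the CXCL12-deficient range. The ratios of Lepr, Osmr and Il11ra1 to Il6st differed by 0.19, -0.02 and 0.26, with exact permutation p = 0.4, 0.9 and 0.5 (adjusted 0.625, 0.9 and 0.625), and each overlapped between the groups. At Osmr the sign turned in 3 of the 6 comparisons that left out a library.

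**Figure D3:**
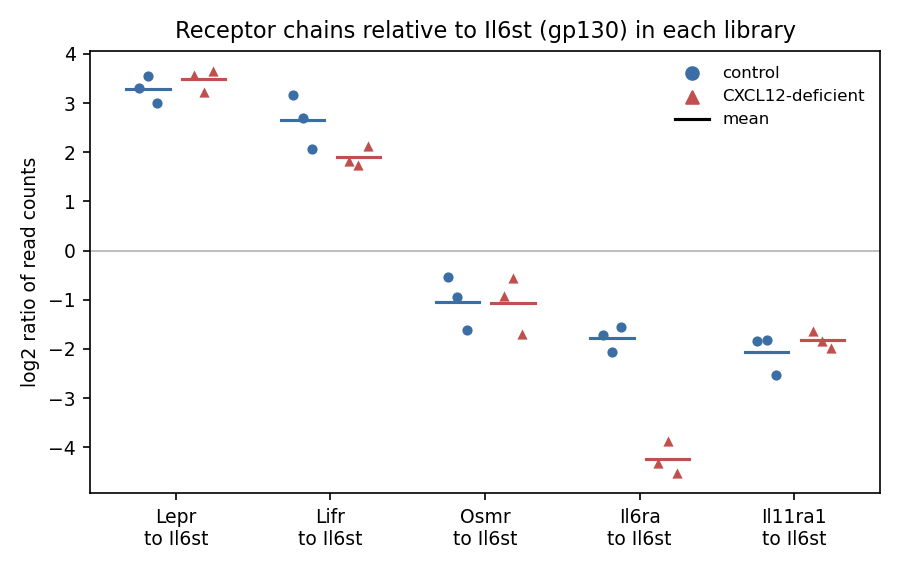
Log2 ratio of the reads of 5 receptor chains to those of Il6st in each of 3 control (circles) and 3 CXCL12-deficient (triangles) libraries, with bars at the means. The groups are apart at Il6ra, from -2.06 to -1.56 against -4.52 to -3.87, and overlap at the other 4 chains. Reads of both genes of a ratio come from bulk libraries and need not stem from the same cells.

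Other genes of the pathway were read from 5 lists, 81 genes with an entry, of which 79 were tested. Those that were called were all lower: 9 fell and 0 rose by edgeR. Of all genes tested, 3.94% were called lower and 0.639% higher, so calls leaned to the lower side there too. At an unadjusted p below 0.05, 10 genes over the lists were higher, a count without a share of all genes beside it. Among 5 tested ligands 2 fell. Oncostatin M (Osm), a cytokine made mainly by blood cells, had 51.8, 44.1 and 59.1 CPM among controls and 18.3, 9.51 and 5.37 CPM among CXCL12-deficient libraries (log2 fold change -2.22 ± 0.39 SE, adjusted p = 0.017, edgeR). Ebi3, a subunit of interleukin 27, went from 28.9 ± 6.51 to 6.94 ± 3.44 CPM (SD, n = 3; adjusted p = 0.017). Neither was called without control replicate 2 or 3, nor was Osm without CXCL12-deficient replicate 2. Il11 and Il27 were under the filter, and Cntf and Lep had no entry in the count table.

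Among 10 other receptor and receptor-processing genes 2 fell. Il10ra, the interleukin 10 receptor chain, went from 22.6 ± 10.9 to 2.99 ± 1.87 CPM (log2 fold change -2.92 ± 0.50 SE, adjusted p = 0.015, edgeR). Csf3r, the granulocyte colony-stimulating factor receptor and itself one of the neutrophil markers, went from 51.8 ± 13.7 to 9.63 ± 5.93 CPM (adjusted p = 0.028). Neither was called without control replicate 3, nor was Csf3r without control replicate 2 or CXCL12-deficient replicate 1.

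Among 18 kinases, STATs and adaptors 1 fell: Stat4, known from T and NK cells, at 10.3, 11.3 and 13.9 CPM among controls and 3.50, 0.872 and 2.40 CPM among CXCL12-deficient libraries (adjusted p = 0.028, edgeR). It lost its call without CXCL12-deficient replicate 3 and without either of control replicates 2 and 3. Jak3, a kinase of lymphocyte receptors named after its values were seen, had 31.2, 28.3 and 34.1 CPM among controls and 11.2, 34.0 and 11.8 CPM among CXCL12-deficient libraries, and was called only without CXCL12-deficient replicate 2. The 2 most abundant, Shc1 and Jak1, had log2 fold changes of 0.30 ± 0.16 and -0.21 ± 0.17 (SE; adjusted p = 0.36 and 0.57, edgeR). Among 17 inhibitors 2 fell, the phosphatase genes Ptpn6, from 241 ± 48.1 to 53.2 ± 8.3 CPM, and Ptprc, the leukocyte antigen CD45, from 80.7 ± 24.05 to 13.3 ± 3.41 CPM (adjusted p = 0.0032 and 0.0039, edgeR). Both were called in all 6 refits. Ptpn6 is best known from blood cells and Ptprc is one of the 8 pan-leukocyte markers. The lists had median log2 fold changes of -0.31 (ligands), -0.01 (receptors), -0.02 (kinases, STATs and adaptors) and -0.07 (inhibitors), beside 0.03 for all genes. Together the 4 lists had 0 genes called higher by edgeR, DESeq2 or limma-voom, and 5 higher at an unadjusted p below 0.05.

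Relative to the summed pan-leukocyte markers, 6 of the 7 called genes of these 4 lists overlapped between the groups. The other, Ptprc, is part of that sum and was not compared with it. Ptpn6 amounted to 9.34% to 10.3% of that sum in controls and 7.75% to 11.8% in CXCL12-deficient libraries, and Osm to 1.79% to 2.77% and 1.41% to 2.3%. The log2 difference on this scale was -0.32 for Osm, -0.07 for Ebi3, -0.92 for Il10ra, -0.61 for Csf3r, -0.52 for Stat4 and -0.10 for Ptpn6, with exact two-sided permutation p from 0.2 to 0.9. The part of the pan-leukocyte markers' fall in that of these genes was not tested.

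**Figure D4:**
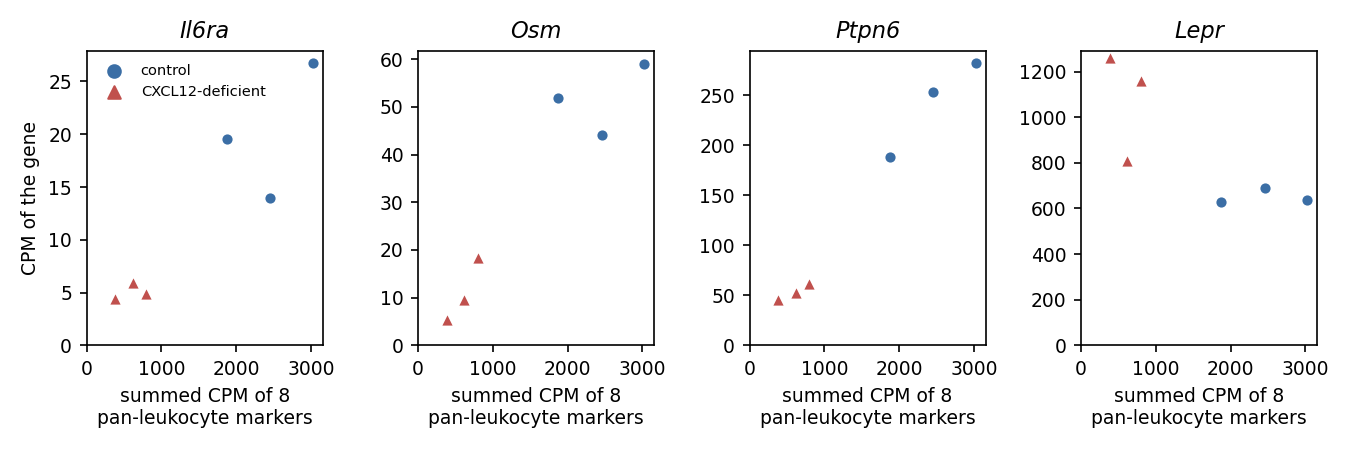
CPM of Il6ra, Osm, Ptpn6 and Lepr in each library against the summed CPM of 8 pan-leukocyte markers, in 3 control (circles) and 3 CXCL12-deficient (triangles) libraries, on linear axes from 0. The marker sum is 1873 to 3025 CPM among controls and 382 to 796 CPM among CXCL12-deficient libraries. Il6ra, Osm and Ptpn6 are lower in all 3 CXCL12-deficient libraries than in any control, and Lepr is higher. Within the groups Il6ra and Osm do not keep the order of the sum among controls, nor does Il6ra among CXCL12-deficient libraries.

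Of 30 genes known as STAT3 targets, 2 fell and 0 rose by edgeR, beside 3.94% of all genes called lower and 0.639% called higher. The median log2 fold change of the 30 was 0.04. At an unadjusted p below 0.05, 5 were higher and 3 lower, and DESeq2 and limma-voom called 2 and 1 higher. Mcl1, a survival gene of the BCL2 family, had 387, 386 and 445 CPM among controls and 268, 247 and 242 CPM among CXCL12-deficient libraries (log2 fold change -0.68 ± 0.14 SE, adjusted p = 0.030, edgeR). Il4ra, the interleukin 4 receptor chain, went from 41.0 ± 4.46 to 22.0 ± 4.22 CPM (SD, n = 3; -0.89 ± 0.20 SE, adjusted p = 0.042). Of the 6 refits, Mcl1 was called in the 2 that left out control replicate 1 or the first CXCL12-deficient library, and Il4ra in the 1 without CXCL12-deficient replicate 3. Relative to the summed pan-leukocyte markers both lay higher in every CXCL12-deficient library, Mcl1 at 14.7% to 20.6% against 33.7% to 63.4% and Il4ra at 1.49% to 2.17% against 2.69% to 6.96%. The log2 differences were 1.39 and 1.17 (exact two-sided permutation p = 0.1 for each, the smallest this design allows). The 8 markers had themselves fallen more than either gene, with a median log2 fold change of -2.08. A higher place on this scale thus follows from the division and is no rise of the gene.

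Socs3, the feedback inhibitor that STAT3 induces, was named after its values were seen. It had 1228, 621 and 826 CPM among controls and 1358, 1392 and 959.5 CPM among CXCL12-deficient libraries. Control library 1 lay within the CXCL12-deficient range (log2 fold change 0.47 ± 0.26 SE, adjusted p = 0.38, edgeR). Also named after their values were seen, the acute phase genes Hp and Lbp had log2 fold changes of 1.001 ± 0.25 and 0.53 ± 0.14, and Lcn2, a granule protein gene of neutrophils as well, one of -1.80 ± 0.43 (SE; adjusted p = 0.057, 0.068 and 0.051, edgeR). Hp is also in the list of CAR cell markers. None of the 3 genes overlapped between the groups. Of all 30 STAT3 targets, 3 lay higher without overlap and 5 lower, beside 11.7% and 13.9% of all genes.

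**Figure D5:**
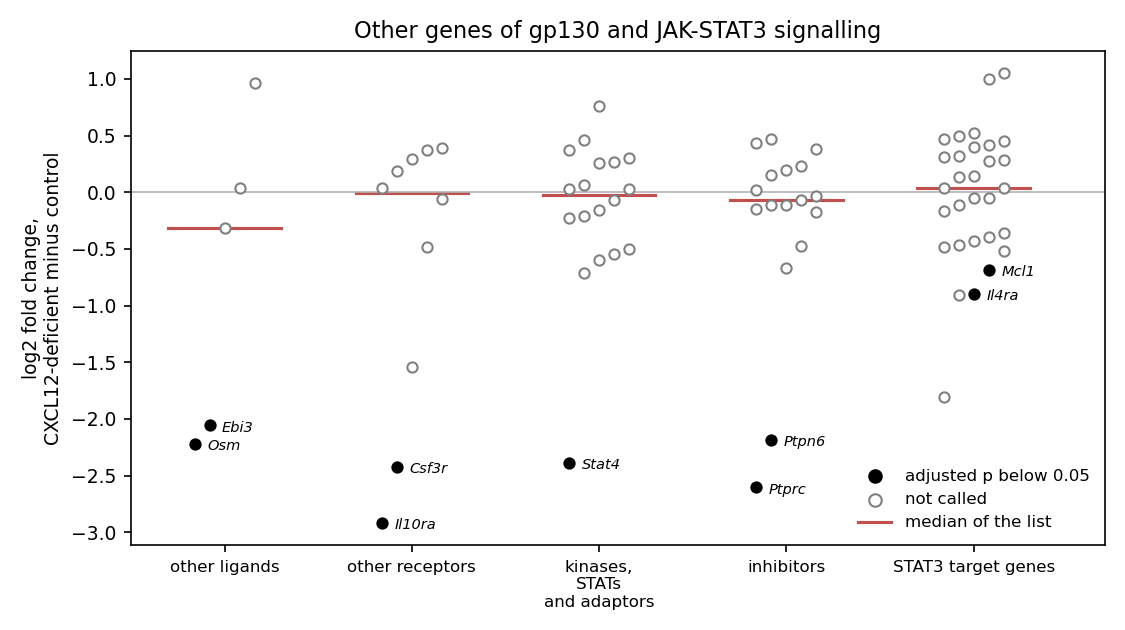
Log2 fold changes (CXCL12-deficient minus control, edgeR) of the tested genes of 5 pathway lists, each point a gene, with a bar at the median of each list. The 9 filled and named points are the called genes and all lie below 0, from -2.92 (Il10ra) to -0.68 (Mcl1), while the list medians lie between -0.31 and 0.04.

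STAT proteins bind palindromes of the form TTCNNNGAA. That motif, which reads the same on both strands, was searched in the windows of 250 bases before each RefSeq start. Of 32851 windows of all genes, 7.02% held it. A gene can have several RefSeq starts, some of them inside its GENCODE span. All 10 genes had a window, 13 in all, and 0 of the 13 held the motif. Of the 30 STAT3 target genes 24 had a window, and 5 of their 30 windows, from 4 genes, held it. The site nearest a RefSeq start in each of those 4 genes is shown to set sequence beside response, with 10 bases to each side. The sites are given in GRCm38.p6, 5′ to 3′ on the strand of the gene and with the motif in capitals. They lie at chr11:117969502-117969530 (minus strand, Socs3), chr9:21015888-21015916 (plus strand, Icam1), chr11:53769914-53769942 (plus strand, Irf1) and chr16:23981353-23981381 (minus strand, Bcl6):
Socs3: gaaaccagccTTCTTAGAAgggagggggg
Icam1: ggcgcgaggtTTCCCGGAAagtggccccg
Irf1: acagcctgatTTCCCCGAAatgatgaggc
Bcl6: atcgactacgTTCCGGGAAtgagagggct

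None of these 4 genes was called. The sites shown for Socs3 and Bcl6 lie inside the GENCODE spans of these genes. Directly before the Bcl6 span, another window held a site that is not shown. Icam1, an adhesion molecule gene, had a log2 fold change of -0.43 ± 0.23, Irf1, an interferon response factor, one of 0.40 ± 0.17, and Bcl6, a transcriptional repressor, one of 0.31 ± 0.29 (SE; adjusted p = 0.36, 0.24 and 0.64, edgeR). Their 4 log2 fold changes, Socs3 included, lay between -0.43 and 0.47.

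The genes most like Lepr over the 6 libraries, by Pearson correlation of log2(CPM + 1) among the 7596 genes whose mean reached 20 CPM, were Hdac3, Abhd12, Ift46, Sfrp4 and Tgm2 (r from 0.994 to 0.998). Of these, Sfrp4 rose (log2 fold change 1.58 ± 0.30 SE, adjusted p = 0.020, edgeR, called without CXCL12-deficient replicate 2 or 3 and in no other refit). The genes most like Il6ra were Sept9, Nop14, Med17, Topbp1 and Cd97 (r from 0.987 to 0.994), of which Topbp1 and Cd97 fell (adjusted p = 0.027 and 0.031, Topbp1 only without CXCL12-deficient replicate 2 among the refits, Cd97 in none). The 6 points share the difference between the groups, so such r values are a description only.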

How the data were processed

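The authors deposited unnormalized read counts per gene for the 6 libraries. Per the submitters' processing notes the tools were HTSeq, DESeq2, TopHat2 2.0.13, Bowtie2 2.2.1, FastQC, Cuffdiff and Cufflinks and the build mm10, with no role stated. Their annotation, strand setting and handling of shared reads were not given in the sources used here. The deposited depth-normalized signal, which is the counts divided by 1 factor per library, was read and left unused. The authors' regularized log2 values served as an alternative, without the 23 entries whose names had become dates.

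The 4 exon entries of Cxcl12 were summed. The edgeR filter (minimum count 10, minimum total 15) kept 13926 genes, which were fitted together without covariates in edgeR 4.0.16 (R 4.3.3; quasi-likelihood F-test, robust) with TMM factors and Benjamini-Hochberg adjustment over all genes (threshold 0.05). SE came from the F statistic. At these depths 1 read was worth 0.0357 to 0.0472 CPM, and intervals of counting error were not formed because the spread between libraries was larger. Single values were compared by exact permutation of the 6 libraries. No library repeated another: within a group, chi-square per degree of freedom between libraries was 34.0 or more. Steps were tested on simulated counts. Replicate numbers only name the libraries.

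The 10 genes and all lists were chosen with earlier results of these data known. The text names the 10 genes, up to 6 called genes of each pathway list with the largest change or, under 2 calls, the 2 most abundant, and the 5 genes most like Lepr and Il6ra. Ratios to summed markers were added after the data were seen, as was a list of other JAK2-coupled receptors, given by its counts and the called and most abundant genes. Beside that list, 1 gene is not reported here. Alternatives were other size factors, other filters, DESeq2 1.42.0, limma-voom (limma 3.58.1), limma on the log2 values, edgeR without robust shrinkage, a threshold of 0.01, and leaving out each library. Gene positions are from GENCODE M21 (GRCm38), sequences from RefSeq (GRCm38.p6).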

Additional observations from a re-analysis of the deposited data

How the results depend on the processing

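No paired analysis was possible because the labels give no replicate numbers that tie libraries of the groups together. The alternatives to the edgeR comparison gave 149 log2 fold changes of the 10 genes. Those at the threshold of 0.01 repeat the reported values, so their sign could not differ. All 149 had the sign reported. Of these, 144 kept their side of the threshold, 3 gained the call (Lepr and Il11ra1 by DESeq2, Lepr without CXCL12-deficient replicate 2) and 2 lost it (Il6ra without control replicate 3 and at a threshold of 0.01). Lif was not tested under the filter of 5 CPM in 3 libraries. Called genes among the 10 numbered 3 by DESeq2, 0 at the threshold of 0.01 (4 at an unadjusted p below 0.05) and 0 to 2 with 1 library left out. The 0 arose without control replicate 3, where 4 of the 10 passed an unadjusted p below 0.05 and edgeR was the tool run. Over all genes, 637 were called, 1292 by DESeq2, 80 at the threshold of 0.01, and 74 (without control replicate 3) to 577 (without control replicate 1) with 1 library left out, 160 of them without control replicate 2. Pathway genes called numbered 9, with 2 at the threshold of 0.01 and from 2 (without control replicate 3) to 9 with 1 library left out, 3 without control replicate 2.

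Of 40 alternative values of the receptor ratios, 3 reversed, each for Osmr to Il6st, whose difference ran from -0.32 to 0.30 with 1 library left out. Relative to summed markers, the added scaling, 4 genes took the other sign. On the log2 scale Il6ra stood at 0.12, Il6st at -0.17, Il4ra at 1.17 and Mcl1 at 1.39. Il6ra and Il6st overlapped between the groups there (exact two-sided permutation p = 0.7 and 0.2). The marker sums differed between the groups themselves, so these signs describe each gene relative to its sum only. Why the sums differed was not tested. The median log2 fold change of all genes was 0.03, and 0.01 and 0.04 with DESeq2 size factors and upper quartile factors. It was not computed relative to summed markers.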

Other observations

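JAK2 also serves receptors outside the gp130 family, and 13 of their chains were listed after the values of the 10 genes were seen. Of 11 tested, 2 fell and 0 rose (edgeR), beside 3.94% of all genes called lower and 0.639% called higher. At an unadjusted p below 0.05, 1 was higher, and 0 were called higher by DESeq2 or limma-voom. Csf2ra and Csf2rb, the chains of the receptor for granulocyte-macrophage colony-stimulating factor, went from 78.5 ± 14.8 to 27.6 ± 5.53 CPM and from 21.3 ± 2.89 to 7.66 ± 1.45 CPM (SD, n = 3; adjusted p = 0.010 and 0.015, edgeR). Csf2ra was not called without control replicate 3, nor was Csf2rb without control replicate 2 or 3. Ghr, the growth hormone receptor gene, had 236 ± 14.4 CPM among controls and 357 ± 95.7 CPM among CXCL12-deficient libraries without overlap (log2 fold change 0.60 ± 0.21 SE, adjusted p = 0.16). Of the 6 refits it was called in the 1 without CXCL12-deficient replicate 2. The interferon gamma receptor genes Ifngr1 and Ifngr2 had log2 fold changes of 0.30 ± 0.18 and 0.25 ± 0.17 and overlapped between the groups (adjusted p = 0.41 and 0.50). In the same libraries all 8 pan-leukocyte markers fell, and their part in these falls was not tested.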
